A study of Sus scrofa with 12 samples.

Results

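Heart muscle lies directly beneath the coronary arteries, and its transcripts were followed here in tissue dissected from coronary stents of pigs. The genes were named by symbol, and earlier results of these data were known when they were chosen: MYH7, MYL2, ACTC1, TNNC1, TNNT2, MB, NPPA and NPPB. A gene was taken as measured where a probe set of the array carried its symbol and no other, which held for 7 of the 8 genes, with 1 probe set each, among 6765 genes named in this way. No probe set carried MB, myoglobin, as its only symbol, so that gene has no value. The filter on low signals left 4 of the 7 in the tests between groups (MYH7, MYL2, ACTC1 and TNNC1) and removed the other 3 (TNNT2, NPPA and NPPB), whose signals are described on every array all the same.

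All 12 samples were total RNA from stented coronary segments of Yorkshire farm pigs, collected 28 days after angioplasty and implantation, and each was hybridised to 1 array. The study's title describes the drug-eluting stents as overlapping. Segments with a bare metal stent (BMS), which carries no drug, came from pig 4746 (BMS 1 from the right coronary artery, RCA, and BMS 2 from the left anterior descending artery, LAD) and pig 4747 (BMS 3 from the RCA and BMS 4 from the LAD). Segments with a sirolimus-eluting stent (SES) came from pig 4745 (SES 1 from the left circumflex artery, LCX, and SES 2 from the RCA) and pig 4750 (SES 3 from the RCA and SES 4 from the LAD). Segments with a zotarolimus-eluting stent (ZES) came from pig 4757 (ZES 1 from the RCA and ZES 2 from the LAD) and pig 4751 (ZES 3 from the RCA and ZES 4 from the LAD). Numbers within a stent type only name the arrays, the sources used here give neither the pigs' ages nor the drug doses, and every pig had stents, so no segment shows an artery without one. Each stent type rests on 2 pigs, and n = 4 below counts arrays, of which 2 at a time share a pig.

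Heart muscle cells contract by sliding thin actin filaments along thick myosin filaments inside sarcomeres. MYH7 encodes the slow beta myosin heavy chain that forms the thick filament, and MYL2 the regulatory light chain of ventricular myosin. ACTC1 encodes cardiac actin of the thin filament, and TNNC1 and TNNT2 encode the calcium-binding and tropomyosin-binding subunits of the troponin complex that switches the filament on. MYH7, MYL2 and TNNC1 are also made in slow skeletal muscle, whereas NPPA and NPPB encode the atrial and B-type natriuretic peptides, hormones that heart muscle releases when it is stretched.

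The 7 genes did not behave as a single measure of heart muscle RNA. Only TNNC1 lay above the array's background level on all 12 arrays, which is 14.3% of the 7, against 63.6% of all 6765 named genes. The background level of an array is the 95th percentile of 59 control probe sets for transcripts not added to the sample, and it ran from 4.15 to 5.96 on the log2 scale. Over the 12 arrays the 21 pairs of genes had Pearson correlations from -0.11 to 0.62 with a median of 0.31. Of these, 3 pairs were above 0.5 (MYH7 with TNNT2, 0.62, MYL2 with TNNT2, 0.61, and MYL2 with NPPA, 0.62) and 4 were below 0. The arrays share pigs and background levels, so these correlations are descriptions. In tissue extracted whole, fewer cells of a type and less RNA per cell cannot be told apart.

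The thick filament genes varied widely between arrays, and both were highest on the same 3 arrays. MYH7 signals on the log2 scale were 6.99, 4.29, 3.77 and 8.81 on BMS 1 to 4, 6.15, 5.44, 1.46 and 9.94 on SES 1 to 4, and 4.66, 6.48, 3.42 and 8.82 on ZES 1 to 4. BMS 4, SES 4 and ZES 4 stood highest within their stent types, the 3 types overlapped, and 8 of 12 arrays lay above background. MYL2 signals were 6.51, 6.61, 5.92 and 8.57 on BMS 1 to 4, 4.96, 0.50, 5.28 and 10.93 on SES 1 to 4, and 3.64, 0.88, 6.60 and 9.54 on ZES 1 to 4. The same 3 arrays were again the highest, SES 2 and ZES 2 were near the bottom of the scale, and 9 of 12 arrays lay above background.

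Of the thin filament genes, TNNC1 gave strong signals everywhere, ACTC1 was uneven and TNNT2 was weak. TNNC1 signals were 13.55, 13.61, 10.75 and 12.52 on BMS 1 to 4, 7.11, 8.32, 10.08 and 12.49 on SES 1 to 4, and 9.73, 13.82, 12.70 and 13.12 on ZES 1 to 4. SES 1, SES 2, ZES 1 and SES 3 were the 4 lowest, while SES 4 lay within the range of the BMS arrays. ACTC1 signals were 6.16, 7.09, 0.29 and 8.87 on BMS 1 to 4, 4.08, 6.72, 4.33 and 7.65 on SES 1 to 4, and 2.59, 4.76, 9.57 and 7.80 on ZES 1 to 4. Its highest array was ZES 3, from an RCA, and 7 of 12 arrays lay above background. TNNT2 signals were 5.94, 2.77, 5.93 and 5.60 on BMS 1 to 4, 4.46, 3.01, 1.82 and 6.56 on SES 1 to 4, and 4.29, 0.11, 0 and 7.06 on ZES 1 to 4. TNNT2 lay above background on 5 of 12 arrays and was listed at 0, the floor of the deposited values, on ZES 3.

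The natriuretic peptide genes were at or near background throughout. NPPA signals were 1.33, 3.78, 2.06 and 4.65 on BMS 1 to 4, 3.67, 0.19, 4.59 and 5.47 on SES 1 to 4, and 3.90, 3.63, 3.09 and 5.43 on ZES 1 to 4. NPPA lay above background on only 3 of 12 arrays (SES 3, SES 4 and ZES 4) and on none of the BMS arrays, where its signal is only an upper bound. NPPB signals were 3.14, 1.02, 5.76 and 5.49 on BMS 1 to 4, 4.59, 1.29, 5.90 and 5.77 on SES 1 to 4, and 1.34, 5.47, 5.61 and 2.73 on ZES 1 to 4. NPPB lay above background on 2 arrays of each stent type, and its highest signal was 5.90.

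**Figure D1:**
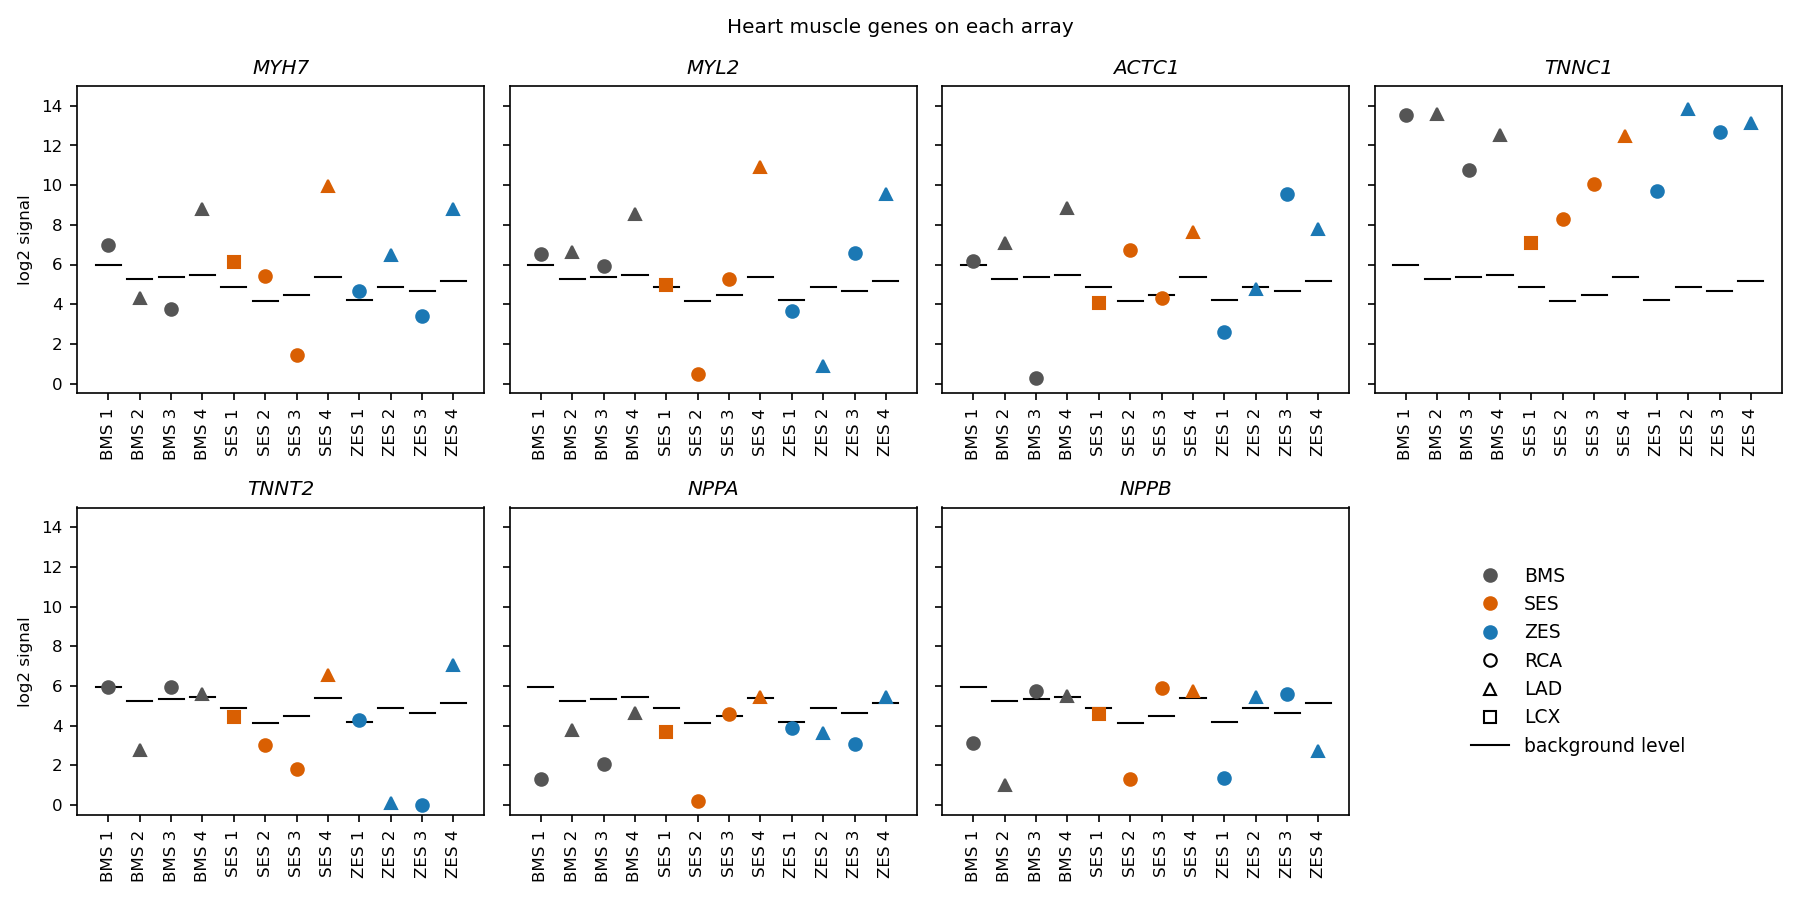
Log2 signal (y axis) of the 7 measured heart muscle genes on each of the 12 arrays (x axis), coloured by stent type and shaped by artery; the short black line at each array is its background level. TNNC1 lies above the line on all 12 arrays, while NPPA does so on 3, and BMS 4, SES 4 and ZES 4 are the 3 highest arrays for MYH7 and MYL2.

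Depth in the sense of read counts does not exist for arrays, and the number of arrays limits the precision. On the arrays, 61.0% to 74.5% of probe sets lay above background, between 41 and 1138 were listed at 0, and pairs of arrays correlated at 0.73 to 0.91 over the probe sets tested. BMS 1 and ZES 2 stood apart in the control probe set for 28S ribosomal RNA, at 14.57 and 14.10 against 6.95 to 10.74 on the others. Values without both are given for LAD minus RCA and, with the other settings, for the stent comparisons. The GAPDH control probe sets, read at the 3′ end minus the 5′ end, differed by 3.64 to 4.63 on the BMS arrays, 2.33 to 3.02 on the SES arrays and 3.44 to 3.91 on the ZES arrays.

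None of the 4 tested heart muscle genes differed between stent types after adjustment, and the stent type with the lowest TNNC1 was SES. TNNC1 averaged 12.61 ± 1.34 around BMS, 9.50 ± 2.34 around SES and 12.34 ± 1.80 around ZES (mean ± SD of log2 signals, n = 4). The difference SES minus BMS was -3.11 ± 0.98 (SE), 8.62-fold lower, with a 95% interval from -5.17 to -1.05 and an adjusted p of 0.144 by limma with Benjamini-Hochberg adjustment over 16799 probe sets. ZES minus SES was 2.85 ± 0.98 (adjusted p = 0.305) and ZES minus BMS was -0.26 ± 0.98 (adjusted p = 0.959). Among all probe sets tested, 0.679% passed the threshold of 0.05 for SES minus BMS, 0% for ZES minus BMS, 0.0714% for ZES minus SES and 0.345% for the F test over the 3 types. A count of 0 among 4 genes lies close to those background rates. At an unadjusted p below 0.05 the 4 genes gave 1, 0, 1 and 1, each time TNNC1, while all probe sets gave 2408, 1510, 1686 and 2257.

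The TNNC1 difference depended on which SES pig was in the comparison. Without SES 4 it was -4.14 (adjusted p = 0.0194 by limma), without pig 4750 it was -4.89 (adjusted p = 0.0247), and without pig 4745 it was -1.32 (adjusted p = 0.804). With each array weighted by its fit it was -3.74 (adjusted p = 0.0284). SES 4 had the highest TNNC1 signal of the SES arrays, so leaving it out had to widen the difference. Of 29 alternatives, 26 did not pass and 3 did: without SES 4, without pig 4750 and with array weights. The same 3 of 29 passed for ZES minus SES. ZES minus SES moved in the same way, to 3.88 without SES 4 (adjusted p = 0.0416), 4.63 without pig 4750 (adjusted p = 0.0454), 1.06 without pig 4745 (adjusted p = 0.986) and 3.56 with array weights (adjusted p = 0.0372).

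For the thick filament genes and cardiac actin, each difference between stent types was smaller than its standard error. MYH7 averaged 5.97 ± 2.36 around BMS, 5.75 ± 3.47 around SES and 5.84 ± 2.35 around ZES, and its differences lay between -0.22 and 0.09, each ± 1.5 (SE). The 95% interval for SES minus BMS ran from -3.38 to 2.94, so a change of several fold in either direction was not detectable with these arrays. MYL2 averaged 6.90 ± 1.15, 5.42 ± 4.27 and 5.17 ± 3.74, with differences of -1.49 for SES minus BMS and -1.74 for ZES minus BMS, each ± 1.80. ACTC1 averaged 5.60 ± 3.71, 5.69 ± 1.76 and 6.18 ± 3.11, with differences of 0.09 and 0.58, each ± 1.61. For these 3 genes the adjusted p by limma ran from 0.748 to 0.989 over the 3 pairwise comparisons. The sign of the MYH7 differences turned under several other settings, given with the processing.

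The 3 genes below the filter had no called difference when the same model was run on all 23999 probe sets without a filter. TNNT2 averaged 5.06 ± 1.54 around BMS, 3.96 ± 2.04 around SES and 2.86 ± 3.44 around ZES, and its ZES minus BMS difference was -2.19 ± 1.42 (adjusted p = 0.683 by limma). NPPA averaged 2.95 ± 1.53, 3.48 ± 2.32 and 4.01 ± 1.0, and NPPB averaged 3.85 ± 2.23, 4.39 ± 2.15 and 3.78 ± 2.10. Their differences between types lay between -0.60 and 1.06.

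The mean log2 signal of the 7 genes also placed the stent types within each other's range. It averaged 6.13 ± 1.22 on the BMS arrays, 5.45 ± 2.05 on the SES arrays and 5.74 ± 1.5 on the ZES arrays (SD, n = 4). By array it was 6.23, 5.60, 4.93 and 7.79 on BMS 1 to 4, 5.0, 3.64, 4.78 and 8.40 on SES 1 to 4, and 4.31, 5.02, 5.86 and 7.79 on ZES 1 to 4. The 3 highest arrays, BMS 4, SES 4 and ZES 4, came 1 from each stent type, and 6, 7 and 6 of the 7 genes lay above background on them, against 3 or 4 on each of the other 9. All 3 were LAD segments, of pigs 4747, 4750 and 4751. These 3 arrays were singled out after their values were seen, so no test is given for them.

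Within pigs, the LAD segment read higher than the RCA segment for 5 of the 7 genes in at least 4 of 5 pigs, but no gene passed the test. TNNC1 was higher in the LAD in 5 of 5 pigs, by 0.05 in pig 4746, 1.77 in pig 4747, 2.42 in pig 4750, 4.09 in pig 4757 and 0.42 in pig 4751, a fitted mean of 1.75 ± 0.48 (SE, adjusted p = 0.721 by limma with the pig as a block). The RCA signals of those pigs ranged from 9.73 to 13.55 and the LAD signals from 12.49 to 13.82, so the arteries overlapped. MYH7 was higher in 4 of 5 pigs, by 5.04 in pig 4747, 8.48 in pig 4750, 1.82 in pig 4757 and 5.39 in pig 4751, and it was lower in pig 4746 by a difference of -2.70. Its fitted mean was 3.61 ± 1.26, 12.2-fold, with a 95% interval from 0.87 to 6.34 and an adjusted p of 0.721. Of the 10 arrays behind it, MYH7 lay above background on 2 of 5 RCA arrays and 4 of 5 LAD arrays, and in 4 of 5 pigs 1 of the arrays was not above background, so the fold is not a measured ratio of levels. MYL2 was also higher in the LAD in 4 of 5 pigs, with differences of 0.11, 2.64, 5.65, -2.76 and 2.94 in pigs 4746, 4747, 4750, 4757 and 4751 and a mean of 1.71 ± 0.99 (adjusted p = 0.747). In pig 4757 neither MYL2 array lay above background. ACTC1 differed by 0.94, 8.58, 3.31, 2.17 and -1.78 in the same order, with a mean of 2.65 ± 1.16 (adjusted p = 0.723). Neither ACTC1 array of pig 4757 lay above background, only the LAD array did in pigs 4747 and 4750, and the 8.58 of pig 4747 rests on an RCA signal of 0.29.

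Without the filter on low signals, LAD minus RCA was 1.60 for NPPA (adjusted p = 0.84 by limma), 0.82 for TNNT2 (adjusted p = 0.954) and -0.25 for NPPB (adjusted p = 0.985). NPPA was higher in the LAD in 4 of 5 pigs (SD of the differences 1.26), although neither array of the pair lay above background in 2 of those 4 pigs. TNNT2 was higher in 2 of 5 pigs, with differences from -4.19 to 7.06, and NPPB in 1 of 5, with differences from -2.88 to 4.13. In pig 4745, where the other segment was from the LCX, MYH7, MYL2, TNNT2, NPPA and NPPB read higher in the LCX and TNNC1 and ACTC1 read lower. Neither array of that pig lay above background for TNNT2, NPPA or NPPB, and only 1 did for MYL2 and for ACTC1.

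Across all 16799 probe sets 0% passed for LAD minus RCA, with 1153 at an unadjusted p below 0.05. The 4 tested genes had a median difference of 2.20, 4 positive and 0 negative, beside a median of 0.05 over all probe sets; 3 of the 4 (MYH7, ACTC1 and TNNC1) had an unadjusted p below 0.05. The fitted values stayed positive for each of the 4 genes under every alternative run, with adjusted p from 0.5 to 0.957, but their size depended on the pigs. Without pig 4750 MYH7 was 2.39 and MYL2 0.73, without pig 4757 MYL2 was 2.83 and TNNC1 1.17, and without pig 4747 ACTC1 was 1.16. Without both BMS 1 and ZES 2, which leaves 3 pigs, MYH7 was 6.30, MYL2 3.74, ACTC1 3.37 and TNNC1 1.54. With a pseudocount of 32 MYH7 was 2.24 and ACTC1 1.15. With the LCX segment of pig 4745 counted beside the LAD they were 3.12 for MYH7, 2.17 for MYL2, 1.77 for ACTC1 and 1.26 for TNNC1. The background level of the array moved with the artery as well: it was higher on the LAD array in 4 of 5 pigs, by 0.11 to 0.92, and lower in pig 4746 by a difference of -0.70, the pigs in which MYH7 had the same directions. Over the 12 arrays the background level correlated with the mean of the 7 genes at 0.67 and with TNNC1 at 0.60. The part of the background level in the differences between arteries was not tested.

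**Figure D2:**
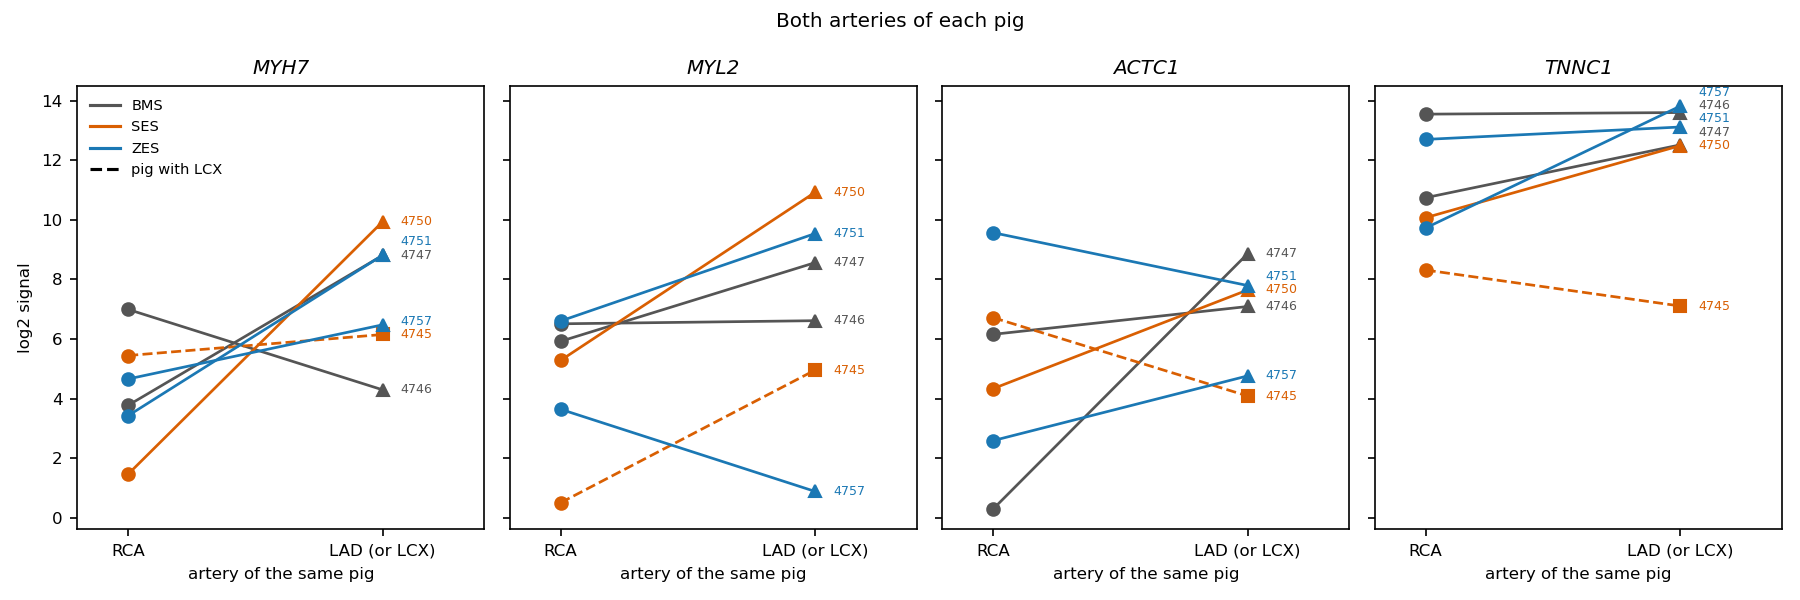
Log2 signal (y axis) of the 4 tested heart muscle genes in the RCA and the other stented artery of the same pig (x axis), 1 line per pig, coloured by stent type and dashed for the pig whose other artery was the LCX. TNNC1 was higher in the LAD in 5 of 5 pigs, and MYH7, MYL2 and ACTC1 each in 4 of 5.

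Other genes of the heart muscle cell were read from lists set by their known roles, which shows how far the 7 stood for the tissue as a whole. Of 13 measured further sarcomere genes, 2 lay above background on all 12 arrays, MYOM1, a protein of the M band that ties thick filaments together, and HSPB7, a small heat shock protein of heart and muscle, both named after their values were seen. TNNI3, the cardiac inhibitory troponin subunit, ranged from 0 to 9.13 and lay above background on 9 arrays. MYL3, the essential light chain of ventricular myosin, ranged from 1.13 to 6.67 (5 arrays above background), and TTN, the giant elastic protein titin, from 0.36 to 10.01 (8 arrays). Called genes numbered 0 of 11 tested in each of the 3 pairwise stent comparisons, in the F test and in LAD minus RCA. The list's medians were -1.09 for SES minus BMS, -0.06 for ZES minus BMS, 0.84 for ZES minus SES and 0.96 for LAD minus RCA, beside medians of -0.02, -0.01, -0.02 and 0.05 over all probe sets. In the same order, 4, 5, 7 and 9 of the 11 genes were positive and 7, 6, 4 and 2 negative. With a pseudocount of 32 the list's medians were -0.25, -0.06, 0.14 and 0.76.

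Calcium handling and conduction genes gave a mixed picture. RYR2, the calcium release channel, lay above background on 1 of 12 arrays. ATP2A2, the calcium pump, and PLN, phospholamban, its inhibitor, lay above background on all 12, and both are also made in smooth muscle. PLN averaged 11.21 ± 0.86 around BMS, 8.46 ± 0.67 around SES and 9.33 ± 1.64 around ZES. Its SES minus BMS difference of -2.75 ± 0.63 had an adjusted p of 0.0569 by limma, the smallest of this list, and 0 of 9 tested genes passed in any comparison.

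Genes of muscle energy supply split in the same way. CKM, the muscle creatine kinase, lay above background on 4 of 12 arrays and CKMT2, the mitochondrial creatine kinase of muscle, on 1. FABP3, a fatty acid binding protein, lay above background on all 12 arrays, between 8.97 and 10.55. Of the 9 tested genes 0 passed in any comparison. Among heart transcription factors, GATA4 ranged from 8.16 to 9.85 and lay above background on all 12 arrays, as did MEF2A, from 8.03 to 9.64, while HAND1 did so on 5, and 0 of 3 tested genes passed. In the natriuretic peptide pathway NPPC, the C-type peptide, lay above background on 9 arrays and NPR2, its receptor, on all 12, and 0 of 2 passed.

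Skeletal muscle genes gave a reference for signals of muscle genes in this tissue. Of 12 measured, 0 lay above background on all 12 arrays, and MYH2, a fast myosin heavy chain, lay above it on none; TNNT3 and TNNI2, fast troponin subunits, did so on 3 and 8. Their mean level was 4.29 ± 0.91 around BMS, 2.96 ± 0.29 around SES and 3.68 ± 0.34 around ZES, and 0 of 4 tested genes passed. Respiratory chain genes, which every cell uses and heart muscle uses heavily, lay above background on all 12 arrays in 17 of 17 cases, with mean levels of 11.50 ± 0.17, 11.68 ± 0.18 and 11.46 ± 0.14, and 0 of 17 passed. NDUFS1, NDUFV1 and NDUFB5, subunits of the first complex of the chain, had medians of 9.58, 9.66 and 9.84.

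**Figure D3:**
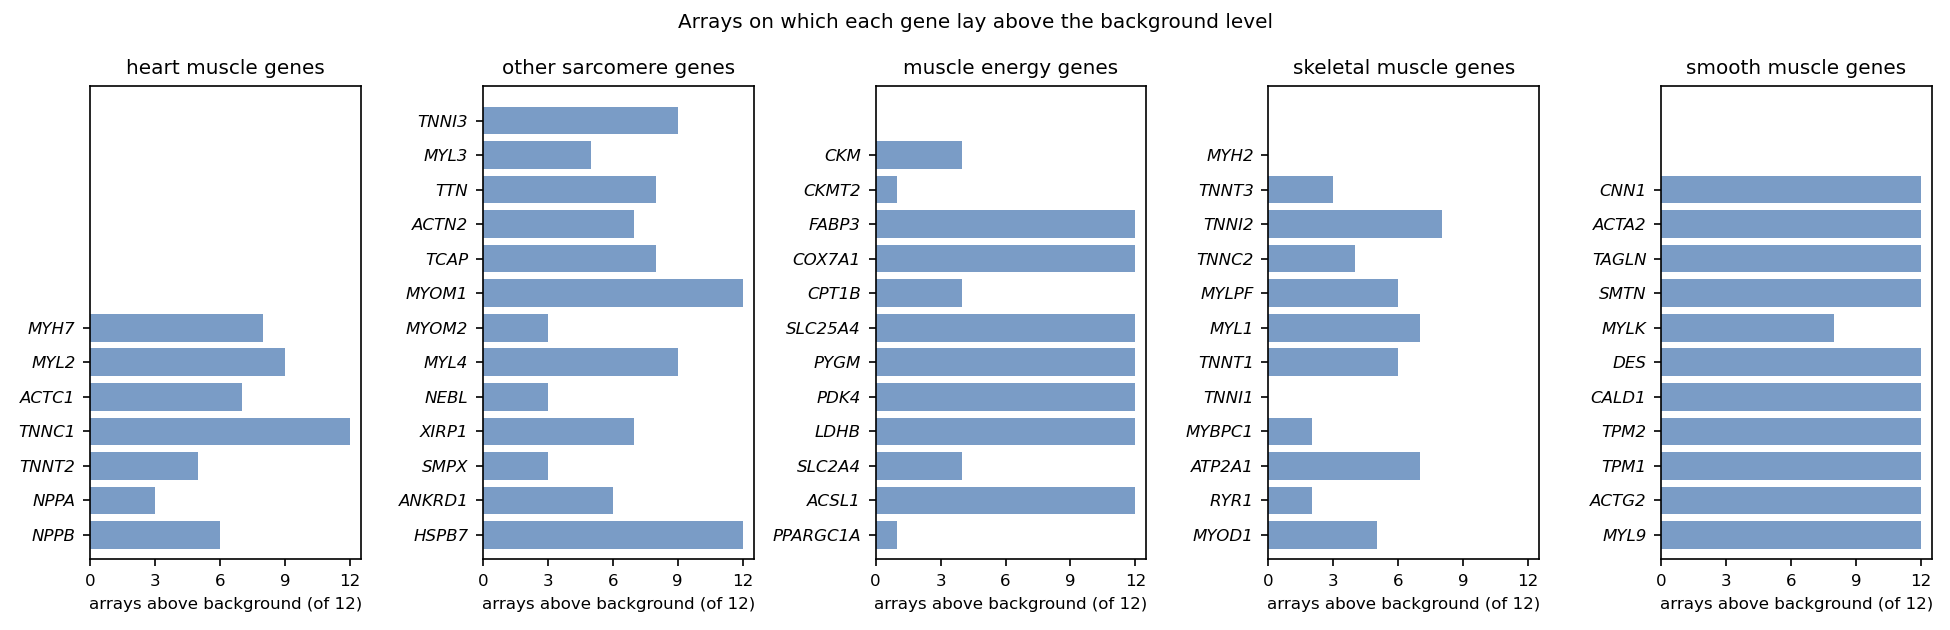
Number of arrays of 12 (x axis) on which each measured gene (y axis) lay above the array's background level, for the 7 heart muscle genes and 4 comparison lists. TNNC1, MYOM1 and HSPB7 reach 12 among heart muscle and other sarcomere genes, as do 10 of 11 smooth muscle genes, while no skeletal muscle gene does.

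TNNC1 followed the smooth muscle genes of the arterial wall, while its correlations with the other heart muscle genes were weak. Its correlation with the mean of 11 smooth muscle genes was 0.95 by Pearson and 0.97 by Spearman over 12 arrays, 0.94 without SES 1 and SES 2, its extreme arrays, 0.98 over the means of 6 pigs and 0.92 after the stent means were taken out. The 12 arrays fell apart into 4 with a smooth muscle level of at most 10.87 and 8 with a level of at least 12.51. Within those 8 the correlation was 0.86 (Spearman 0.95), and 4 arrays are too few for a value. Its correlations with the other 6 heart muscle genes ran from -0.02 (TNNT2) to 0.45 (ACTC1). TNNC1 was read by 1 probe set, whose sequence was not given, so whether it reads TNNC1 alone was not tested.

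The genes closest to TNNC1 among 5789 other named genes were LOC100510975 (0.96), KCNMB1, the beta subunit of the calcium-activated potassium channel of smooth muscle (0.96), and CNN1, calponin of smooth muscle (0.96). Of 11 smooth muscle genes, 9 were among the 100 genes closest to TNNC1, against 1 for MYH7, 1 for MYL2 and 1 for ACTC1. Of 11 further sarcomere genes, 2, 3, 1 and 0 were among the 100 closest to TNNC1, MYH7, MYL2 and ACTC1. This count of closest genes per member was added after the data were seen. The smooth muscle genes themselves had mean levels of 12.99 ± 0.53 around BMS, 10.87 ± 1.27 around SES and 12.75 ± 1.31 around ZES, from 10.04 on SES 2 to 13.91 on ZES 2. CNN1 differed by -3.15 ± 0.81 for SES minus BMS (adjusted p = 0.0804 by limma), ACTA2, smooth muscle actin, by -1.52 ± 0.44 (adjusted p = 0.11) and TAGLN, transgelin, by -2.16 ± 0.62 (adjusted p = 0.109). All 11 were lower around SES than BMS, with a median of -2.09, and 0 of 11 passed. In LAD minus RCA all 11 were positive, with a median of 1.10, and 0 passed. The mean smooth muscle level and TNNC1 were both lower around SES than BMS. By pig, the LAD minus RCA difference of the smooth muscle level was -0.04, 0.06, 2.27, 3.04 and 0.19 in pigs 4746, 4747, 4750, 4757 and 4751. In pig 4747 that was 0.06 beside 1.77 for TNNC1. Between BMS and SES the array controls moved as well: the mean background level was 5.51 and 4.72, the added control transcripts read 16.16 and 14.95, the GAPDH 3′ minus 5′ reading was 4.16 and 2.71, and the mean number of probe sets listed at 0 was 170 and 647. Over the 12 arrays TNNC1 correlated with the 28S control at 0.64, the background level at 0.60, the GAPDH reading at 0.55, the added control transcripts at 0.54 and the number listed at 0 at -0.58. The part of these measures in the TNNC1 differences was not tested.

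MYH7, MYL2 and TNNC1 each also moved with the other sarcomere genes to some degree. MYH7 correlated with the mean of 13 further sarcomere genes at 0.82 (Spearman 0.76), at 0.69 without SES 3 and SES 4, its extreme arrays, and at 0.12 over the means of 6 pigs. MYL2 correlated with them at 0.60 (Spearman 0.62), at 0.81 without SES 2 and ZES 2, and at 0.63 over the means of 6 pigs. For TNNC1 the value was 0.68 (Spearman 0.51), 0.49 without SES 1 and SES 2, and 0.88 over the means of 6 pigs. Over 12 arrays it was 0.50 for TNNT2, 0.43 for NPPA, 0.39 for ACTC1 and 0.18 for NPPB. With the smooth muscle genes the values were 0.35 for MYH7 and 0.39 for MYL2 over 12 arrays, against 0.95 for TNNC1. Without the extreme arrays of each gene they were 0.16 for MYH7 and 0.61 for MYL2. Over the means of 6 pigs they were 0.16 for MYH7 and 0.50 for MYL2. Within the 8 arrays of high smooth muscle level the correlations with the smooth muscle genes were -0.10 for MYH7 (Spearman 0) and -0.63 for MYL2 (Spearman -0.33). ZES 2 had the highest smooth muscle level, 13.91, and its MYL2 signal of 0.88 was not above background. The mean of MYH7 and MYL2 was 8.69 on BMS 4, 10.44 on SES 4 and 9.18 on ZES 4 and at most 6.75 on the other 9 arrays, and 3 of those 9, BMS 1, BMS 2 and ZES 2, had higher smooth muscle levels than all 3 of them. The mean of the 13 sarcomere genes was also highest on SES 4 (7.23), ZES 4 (6.43) and BMS 4 (6.43), with BMS 1 next at 6.39. Its LAD minus RCA differences were -1.35, 1.33, 2.74, 0.56 and 1.24 in pigs 4746, 4747, 4750, 4757 and 4751, the same signs as those of MYH7.

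**Figure D4:**
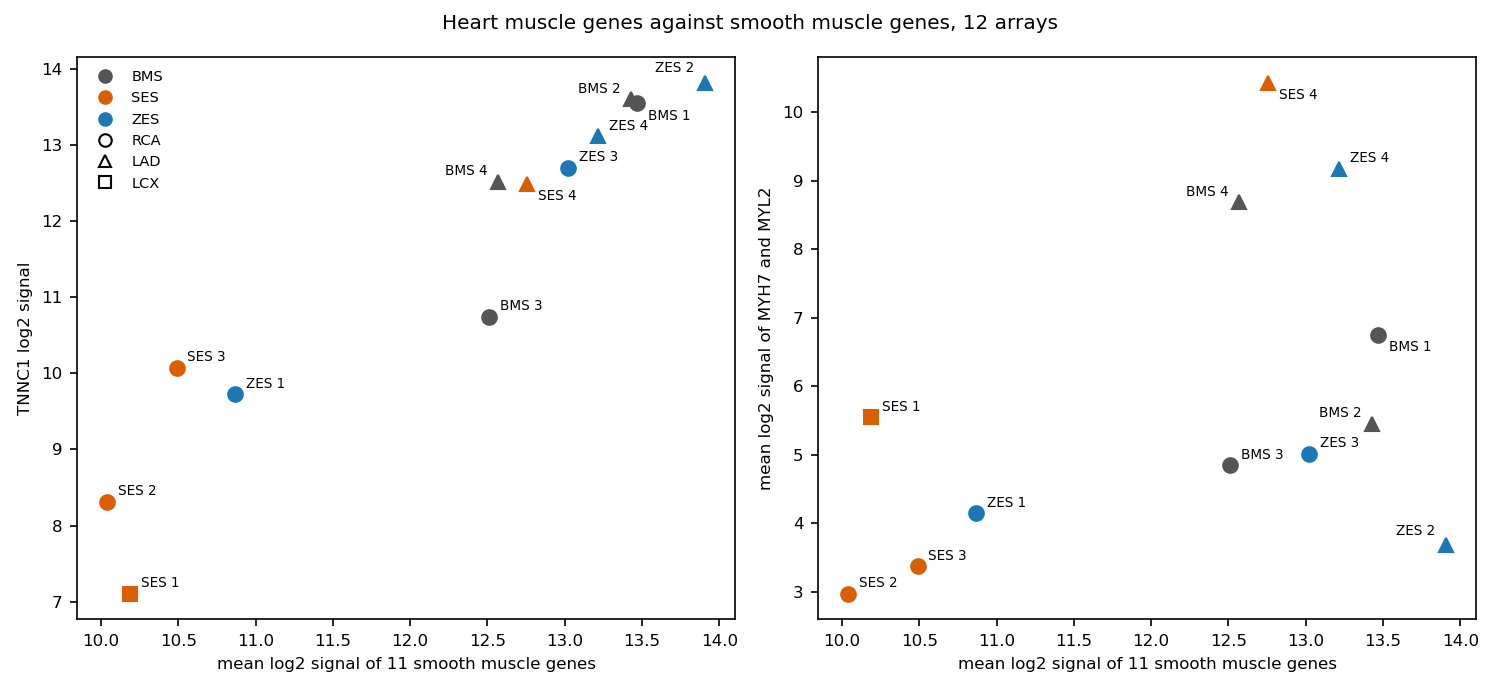
Log2 signal of TNNC1 (left, y axis) and mean log2 signal of MYH7 and MYL2 (right, y axis) against the mean log2 signal of 11 smooth muscle genes (x axis), 1 point per array, coloured by stent type and shaped by artery. TNNC1 climbs with the smooth muscle genes (Pearson 0.95), whereas BMS 4, SES 4 and ZES 4 stand above the other 9 arrays for MYH7 and MYL2.

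The 10 genes whose pattern was most like the mean of the 7 heart muscle genes held no gene of the sarcomere list. By Pearson correlation over 12 arrays among 5789 other named genes, the 10 closest were RCAN1 (0.92), MAZ (0.88), CHD3 (0.87), PABPN1 (0.86), PAQR7 (0.85), OCIAD2 (0.84), ASPN (0.83), GJA5 (0.83), FAM198B (0.83) and NFIB (0.81). RCAN1 encodes a regulator of the phosphatase calcineurin, ASPN the matrix protein asporin, and GJA5 a connexin of atrial muscle and arterial endothelium. RCAN1 lay above background on all 12 arrays, between 11.53 and 12.61, and was highest on SES 4, ZES 4 and BMS 4. Its differences between stent types were at most 0.22 in size (± 0.30 SE, adjusted p from 0.778 to 0.988 by limma). Without BMS 4 and SES 4, the arrays farthest from the median of the mean level, the correlations were 0.86 for RCAN1, 0.85 for MAZ and 0.73 for CHD3. The 3 lowest correlations were those of SPAST (-0.87), HR (-0.85) and SNRPG (-0.83). No gene of the sarcomere list or the muscle energy list was among the 100 closest to this mean. Their best ranks were 107 for MYOM1 and 192 for SLC25A4. TPM1, a tropomyosin counted here with the smooth muscle genes, ranked 33. The ranks depended on the mean used: with the mean of MYH7 and MYL2, TCAP of the sarcomere list ranked 83 and MYOM1 278.

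Markers of other cell types that such a segment could hold were read in the same way. ADIPOQ, the fat cell hormone adiponectin, lay above background on 0 of 12 arrays, but LEP, leptin, did so on 9. FABP4, a fatty acid binding protein, lay above background on all 12, between 10.87 and 12.80. Of the 8 measured fat cell genes, 4 lay above background on all 12 arrays. The 8 genes had mean levels of 7.23, 7.19 and 6.88 around BMS, SES and ZES, and 0 of 6 tested genes passed in any comparison. The correlation of the fat cell level with MYH7 was 0.31 and with TNNC1 it was -0.07. Leukocyte genes averaged 6.66 ± 0.35, 8.21 ± 0.27 and 8.15 ± 0.40, and CD3E, a subunit of the T cell receptor complex, was the only gene of all the lists to pass for SES minus BMS, with means of 2.73 ± 1.84 and 7.62 ± 0.27 around BMS and SES (adjusted p = 0.0172 by limma). On BMS 1 to 4 CD3E was 3.39, 2.19, 0.50 and 4.83, each below background, so its BMS mean is only an upper bound. Of the 4 leukocyte genes, CD3E had by far the largest SES minus BMS difference, 4.90 ± 0.83 (SE). CD14 differed by 0.90 ± 0.40 and CD163 by 0.85 ± 0.45, while PTPRC, the first of the list, went the other way at -0.45 ± 0.56. The mean of the list therefore leans on CD3E. Fibroblast genes averaged 11.71 ± 0.07, 11.49 ± 0.44 and 11.29 ± 0.66, and 0 of 6 passed. Endothelial genes averaged 5.66 ± 0.21, 6.22 ± 0.54 and 6.97 ± 0.46, erythroid genes 4.98 ± 1.15, 5.89 ± 0.61 and 5.25 ± 0.76, and nerve genes 7.36 ± 0.81, 5.91 ± 1.01 and 6.98 ± 2.05 in the same order, and 0 of 7, 0 of 3 and 0 of 1 passed in any comparison.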

How the data were processed

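Total RNA of 12 stented segments was hybridised to Affymetrix porcine arrays, 1 per segment. Per the submitters' processing notes, the authors used MAS5 in Affymetrix Expression Console 5.0, and the deposited unit is a log2 signal per probe set. The genome build and the handling of low signals: not given in the sources used here. The log2 scale was read from the values, whose linear mean with 2% trimmed at each end was 500.15 to 500.17 on every array.

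Of 24123 probe sets, 124 controls were left out, then the 30% with the lowest mean (below 4.30), which left 16799. In the platform's annotation, 10069 probe sets have 1 symbol, 198 have several and 13732 have none. The 3 stent types entered a single limma 3.58.1 model (R 4.3.3, statmod 1.5.0) of all 12 arrays, with the pig as a random block (correlation -0.0322, which made the tests slightly more liberal) and a variance trend. LAD and RCA were compared over the 10 arrays of 5 pigs with the pig as a fixed block. All tests are two-sided, and p-values were adjusted by Benjamini-Hochberg over every probe set tested. A list level is the mean log2 signal of its measured genes, with 1 probe set per gene, the one with the highest mean. Gene lists cover sarcomere, calcium handling, energy supply, heart transcription factors, natriuretic peptides, skeletal and smooth muscle, respiratory chain, fat, endothelial, fibroblast, leukocyte, erythroid and nerve cells. Named genes are all members, the 10 genes most like and 3 least like their mean, the first 3 measured genes of most lists, and list genes that passed. No endothelial, fibroblast, erythroid or nerve gene is named. Other named genes were picked after the values were seen, among them MYOM1, HSPB7, SLC25A4, TPM1, TCAP, CD163 and the genes closest to TNNC1. The members and the lists were chosen with earlier results of these data known. The model code was run on simulated data with independent noise, no pig effect and spreads capped at the median over probe sets. That run therefore does not measure error rates in these data. Alternatives were other filters, scalings, pseudocounts, variance models, blocks, pig means, array weights, and leaving out each array or pig. No sequence is printed, since none was given for the probe sets or genes.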

Additional observations from a re-analysis of the deposited data

Results flagged for a closer look

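TNNT2 on BMS 2 stood apart from the other BMS arrays: its signal of 2.77 lay below the other 3, which ran from 5.60 to 5.94, and the gap was 0.892 of the range of the 4 arrays, more than the critical value of Dixon's test at the 95% level allows for groups of 4. BMS 2 was at or below background for TNNT2, and the test was made in 24 groups, of which chance alone picks out about 1 in 20.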

How the results depend on the processing

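The count of heart muscle genes that passed was 0 for each comparison, and it became 1 for SES minus BMS, for ZES minus SES and for the F test with array weights, each time TNNC1; leaving out an array or pig gave 0 to 1 in each. The probe sets that passed for SES minus BMS (114) were 183 without a filter, 199 with a pseudocount of 32, 64 with the mean of each pig, 19 with no trend in the variance, 673 with array weights, 178 on the 8 arrays of both groups and 26 without both BMS 1 and ZES 2, and 0 to 415 with an array or pig left out. For ZES minus BMS (0) there were 3 without a filter and 0 to 71 with an array or pig left out. For ZES minus SES (12) there were 48, 47, 4, 0, 306, 5 and 4 under those same 7 settings, 6 with quantile normalization, 6 with median centring, 6 without the pig block, and 0 to 158 with an array or pig left out. For the F test (58) there were 108 without a filter, 109 with the pseudocount, 29 without the pig block, 5 without a trend, 625 with weights, 10 without both arrays and 0 to 314 with an array or pig left out.

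Some small differences turned their sign, and the cause was not tested. MYH7 for SES minus BMS was 0.067 after quantile normalization, 0.15 with the pseudocount and 0.12 without both arrays; for ZES minus BMS it was 0.11 after quantile normalization, 0.033 with median centring and 0.0081 without both arrays; for ZES minus SES it was -0.24 with the pseudocount and -0.12 without both arrays. MYL2 for ZES minus SES was 1.58 with weights and 1.18 without both arrays, and ACTC1 for SES minus BMS was -0.46 with the pseudocount and -0.36 with weights. With an array or pig left out, MYH7 ran from -1.55 to 1.21, -1.07 to 0.81 and -1.34 to 1.43 for SES minus BMS, ZES minus BMS and ZES minus SES, MYL2 from -4.17 to 1.20, -4.65 to 1.17 and -3.16 to 2.66, ACTC1 from -1.67 to 1.13, -1.93 to 3.08 and -2.02 to 2.99, and TNNC1 for ZES minus BMS from -1.24 to 0.71. The mean level taken only over genes above background on all arrays is TNNC1 alone and gave -3.11 for SES minus BMS and 2.85 for ZES minus SES. Without TNNC1 the mean level gave -0.28 for SES minus BMS (-0.68 with it) and -0.14 for ZES minus SES (0.29 with it), and -0.41 for ZES minus BMS. LAD minus RCA kept its direction for MYH7, MYL2, ACTC1, TNNC1 and the mean level under all alternatives run, and with an array or pig left out it ran from 2.39 to 5.18, 0.73 to 2.83, 1.16 to 3.75, 1.17 to 2.18 and 1.22 to 2.28. No paired analysis was possible because every pig had 1 stent type and replicate numbers only name the arrays; this holds for the stent comparisons, whereas LAD and RCA were compared as pairs within pigs. Leaving out BMS 1 and ZES 2 together was chosen after seeing the data, as were the mean level without TNNC1 and the closest genes per member. The split of the arrays by smooth muscle level was also placed in a gap seen in the data. Low signals and the 2 pigs per stent type limit these results: 6 of the 7 genes were at or below background on some arrays, where their values are bounds.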
